A study of Mus musculus with 38 samples.

Results

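The comparison of LAD mice with sham mice 24 h after surgery was taken from a qRT-PCR study of myocardial ischemia and reperfusion (I/R) in the mouse heart. It holds 12 of the 38 mice of the series, 7 with occlusion of the left anterior descending coronary (LAD) and 5 sham-operated, chosen by the group and time in their labels. Every one of the 21 target assays of the study is described. The other mice were followed for 96 h or received Myriocin, an inhibitor of sphingolipid synthesis.

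All mice were male C57BL/6N, 8 to 10 weeks old at surgery. In LAD mice the coronary was tied for 30 min and then released, and empty solid lipid nanocarriers (SLN) were injected at the start of reperfusion. In sham mice the chest was opened but the coronary not tied, and an injection of empty SLN is not stated for them, so that occlusion and vehicle injection cannot be told apart here. RNA of LAD mice came from the at-risk area of the left ventricle, which had lost its blood supply during the occlusion, and RNA of sham mice from left ventricle tissue. The methods do not say which part of the sham ventricle was taken, so the sampled stretch may differ between the groups. Hearts had been stained with Evans blue and TTC before extraction. In such bulk tissue fewer cells of a type and less RNA per cell cannot be told apart.

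The heart takes most of its energy from the oxidation of fatty acids (FA). FA enter the cardiomyocyte through receptors and transporters of the plasma membrane, are carried by a binding protein in the cytosol, pass into mitochondria by way of carnitine palmitoyl transferases, and are shortened there by acyl-CoA dehydrogenases. Excess FA are stored in lipid droplets coated by perilipins and released by lipases. The PPAR nuclear receptors with their co-activator PGC-1α, and the lysosomal regulator TFEB, drive transcription of these genes. An injured heart is also known to shift from the adult alpha form of myosin heavy chain towards the fetal beta form.

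The panel of 21 genes was chosen by the authors along this route. It holds 2 myosin heavy chains (MYHC6 and MYHC7), 5 transcription factors or co-activators (PPARGC1A, PPARA, PPARG, PPARd and TFEB) and the TFEB target SQSTM1. There are 7 genes of FA uptake and transport (VLDLR, CD36, FABP3, SLC27A1, CPT1A, CPT1B and UCP3), 3 of FA metabolism enzymes (ACADM, ACADL and LIPE) and 3 perilipins (PLIN2, PLIN4 and PLIN5). The table of values lists the assays by plate codes, A01 to A12 and B01 to B09. No table used here pairs a code with a gene, so the results are given by code, and neither the role of a code nor the cell type of the tissue could be checked by its markers.

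The quantity deposited is the threshold cycle (Ct), the cycle of amplification at which the fluorescence crosses a set level. A lower Ct stands for more transcript, and 1 cycle for a factor of 2 if every cycle doubles the product. Below each target the table lists the Ct of a reference assay, B10, taken here as RPLI, the only endogenous control that the methods name. Its primers are shown because every relative value below rests on this assay, in lower case throughout since no base is singled out:
RPLI forward primer: ctcggccgttctcctgta
RPLI reverse primer: gtggaagtggggcttcag
Of 252 combinations of assay and mouse 186 were filled and 66 empty, 114 of 147 being filled in LAD mice and 72 of 105 in sham mice. An assay had 4 to 7 LAD mice and 3 to 5 sham mice, and 15 of the 21 assays had only 3 sham mice. Target Ct ran from 15.0 to 34.2 with a median of 28.1. The wells behind a Ct are not given, so technical error cannot be given, and the spread between mice sets the precision.

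The reference assay was first compared between the groups, as 1000 ng of RNA entered each reverse transcription. The mean reference Ct was lower in LAD mice in 18 of the 21 assays and higher in 3. In 10 of the 21 (47.6%) it differed with an exact permutation p under 0.05 (two-sided, unadjusted), lower in LAD mice each time, and in 12 (57.1%) the groups did not overlap. After Benjamini-Hochberg adjustment of the exact test none of the 10 remained, the lowest adjusted p being 0.0833. At these group sizes no assay could pass that adjustment by itself, so this says little about the 10. As a mean per sample number, the reference Ct was 26.4 ± 0.312 cycles (SD, n = 5 numbers) in sham mice. In LAD mice it was 25.3 ± 0.203 cycles (SD, n = 7 numbers). These SDs are of averages over the assays filled for a number, not of single readings. Single readings, each counted once, had a wider SD, 1.36 cycles in sham and 1.01 cycles in LAD mice. Within an assay the difference of LAD from sham ran from -3.99 cycles in A05 to 1.32 cycles in A08, with a median of -1.29. The reference was thus not level between the groups, and the relative values below contain its shift.

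The reference readings also bear on what a sample number is. The 186 listings held 130 distinct readings, 47 of them listed with more than 1 assay and 21 under more than 1 sample number. The counts of assays given above for the reference Ct are therefore not counts of independent comparisons. No reading was shared by LAD and sham mice of 24 h. One reading, 26.6, listed for sham replicate 4 with B04, also stood with 3 assays of sham mice of 96 h. A sample number may therefore not be the same mouse in every assay, so that no mouse is followed from assay to assay here.

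Assays that drew on the same LAD readings could have quite different sham readings. A05 and A06 shared 5 LAD readings and no sham reading, and the mean sham reference Ct was 29.0 with A05 and 26.0 with A06. A08 shared 3 LAD readings with A06, and its mean sham reference Ct was 23.4. Between A05 and A08 the mean sham reference thus differed by 5.52 cycles, and the mean LAD reference by 0.211 cycles. These were the widest gaps. Over the 7 pairs of assays that shared LAD readings and no sham reading, the median gap in mean sham reference was 0.446 cycles. Over the 12 pairs that shared both kinds it was 0.121 cycles. The plot of reference Ct by assay shows the readings of all 21.

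**Figure D1:**
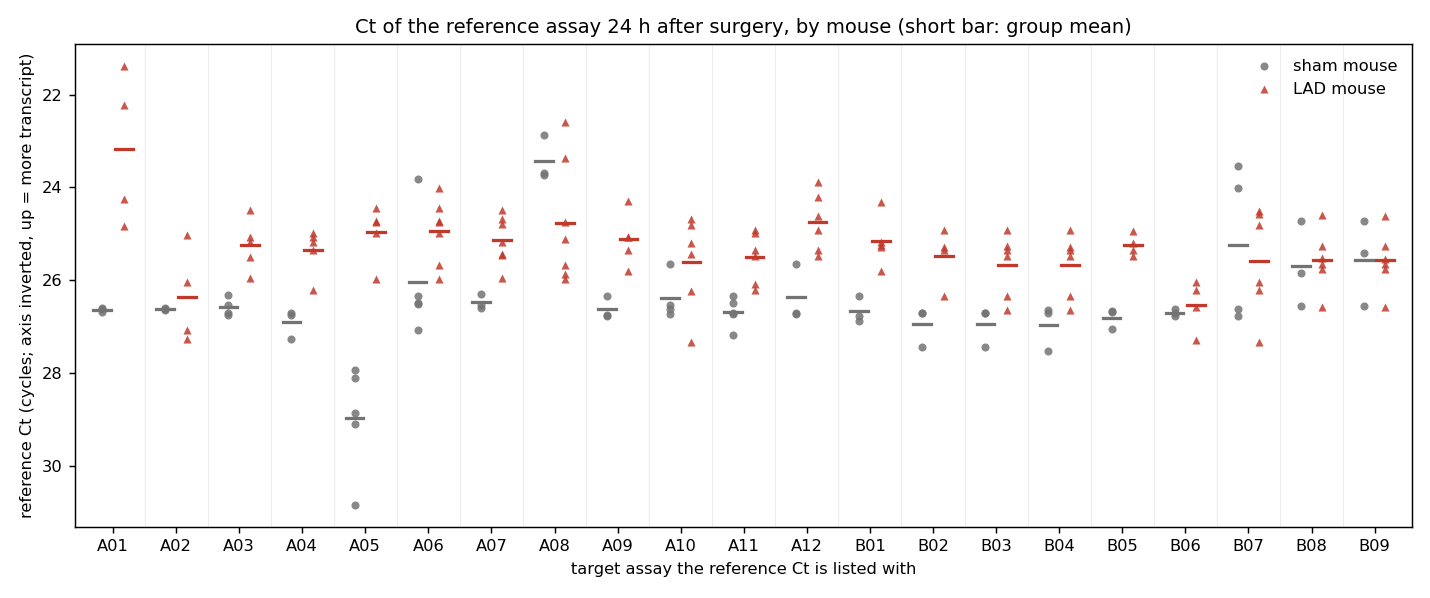
Ct of the reference assay (y axis, cycles, inverted so that up is more transcript) listed with each of the 21 target assays (x axis) in sham mice (gray circles) and LAD mice (red triangles) at 24 h, with the group mean as a short bar. LAD means lie above sham means in 18 assays, and sham readings stand lowest with A05 (mean 29.0 cycles) and highest with A08 (mean 23.4 cycles).

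Relative expression was then computed in each mouse as reference Ct minus target Ct of the same assay, on a log2 scale on which higher means more transcript. Relative quantity is its antilog against the mean of the sham mice. Over the panel the mean was lower in LAD mice in 16 assays and higher in 5, with a median log2 difference of -0.32 and a range from -1.81 in B08 to 2.72 in A01. A03, A08 and B08 were lower in LAD mice and passed the exact test. A02 and B05 were lower and A01 higher, each without overlap between the groups, but with too few mice for the exact test to reach 0.05. With the exact permutation test 3 of the 21 assays (14.3%) had an unadjusted p under 0.05, all 3 lower in LAD mice. In 6 of the 21 (28.6%) the groups did not overlap, 5 lower and 1 higher.

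After Benjamini-Hochberg adjustment over the 21 assays the exact test left 0 assays, 3 passing unadjusted, and the lowest adjusted p was 0.167. The smallest p that the exact permutation test allowed in any assay was 0.00253, in A06. Even at that p an assay could not pass the adjustment unless other assays were low too. The 0 therefore says little about the 3. In limma, which shares the spread between mice over all 6 groups of the series, 6 assays (28.6%) had an unadjusted p under 0.05, 5 lower (23.8%) and 1 higher (4.76%), and 4 (19%) an adjusted p under 0.05, 3 lower (14.3%) and 1 higher (4.76%). The exact test could reach 0.05 in 16 assays. The SD was larger in LAD than in sham mice in 17 of the 21 assays, with medians of 0.46 and 0.23 on the log2 scale. The plot of relative expression shows each mouse.

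**Figure D2:**
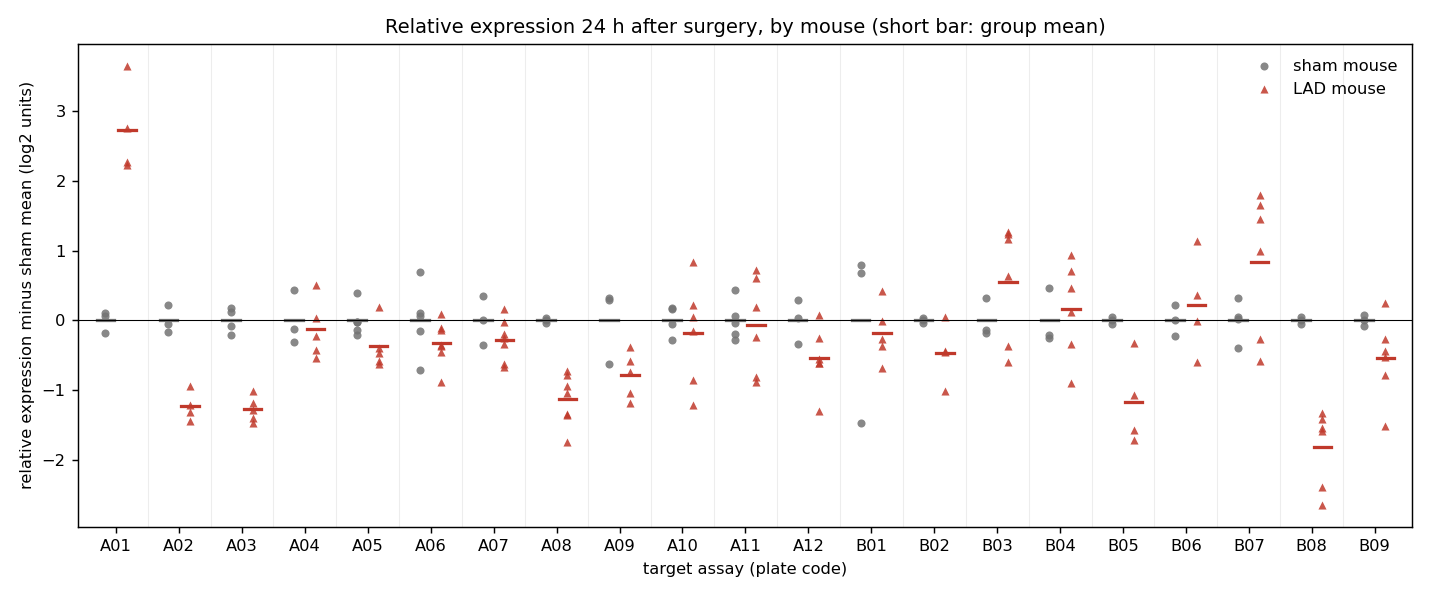
Relative expression minus the sham mean of the assay (y axis, log2 units) for each of the 21 target assays (x axis) in sham mice (gray circles) and LAD mice (red triangles) at 24 h, with the group mean as a short bar. LAD mice lie wholly above sham mice in A01 and wholly below them in A02, A03, A08, B05 and B08.

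A03 had the lowest adjusted p in limma. Relative expression was -4.82, -4.43, -4.49 and -4.69 in the 4 sham mice, and -5.79, -5.89, -6.07, -5.61 and -6.01 in the 5 LAD mice. Each LAD mouse was below each sham mouse, and the spread within either group was small beside the gap. Relative quantity was 1.01 ± 0.124 (SD, n = 4) in sham and 0.418 ± 0.0532 (SD, n = 5) in LAD mice. The log2 difference was -1.27 ± 0.12 (SE; exact permutation test, two-sided, p = 0.0159, the minimum for these group sizes), with an adjusted p of 0.00206 in limma. The target Ct itself hardly differed, with a log2 difference of 0.07 on raw Ct (exact permutation test, p = 0.746), while the reference Ct of the assay was 1.34 cycles apart, at means of 26.6 in sham and 25.2 in LAD mice. A03 was thus lower against the reference, while its target Ct overlapped between the groups.

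B08 had the largest fall of the panel. Relative expression was 3.43, 3.38 and 3.47 in the 3 sham mice, and 1.84, 0.79, 2.01, 2.10, 1.89 and 1.04 in the 6 LAD mice. Sham mice lay close together, and LAD replicates 2 and 6 stood below the other 4. Relative quantity was 1.00 ± 0.0321 (SD, n = 3) in sham and 0.301 ± 0.0997 (SD, n = 6) in LAD mice, a log2 difference of -1.81 ± 0.23 (SE; exact permutation test, p = 0.0238, the minimum for these group sizes). In limma the adjusted p was 0.0104. The reference Ct differed by -0.14 cycles here (exact permutation test, p = 0.738), and the difference on raw Ct was -1.67 (exact permutation test, p = 0.0476), so that B08 was lower on both scales.

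A08 was lower as well, with a wider interval. Relative expression was -1.32, -1.25 and -1.28 in the 3 sham mice, and ran from -3.02 through a median of -2.32 to -2.01 in the 7 LAD mice, all below each sham mouse. Relative quantity was 1.00 ± 0.0235 (SD, n = 3) in sham and 0.469 ± 0.111 (SD, n = 7) in LAD mice. The log2 difference of -1.13 ± 0.14 (SE) passed the exact permutation test (p = 0.0167, the minimum for these group sizes), but not limma over all 38 mice, where the adjusted p was 0.285 and the 95% interval ran from -2.58 to 0.32. In limma over the 12 mice of this comparison alone A08 passed, with an adjusted p of 0.00332, and with the replicate block it did not, with 0.0761. The 3 sham mice had target Ct of 24.2, 24.9 and 25.0 with reference Ct of 22.9, 23.7 and 23.7. On raw Ct the difference was larger, at -2.45 (exact permutation test, p = 0.0167), since the reference Ct went the other way, by 1.32 cycles (exact permutation test, p = 0.167).

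The count of 3 assays rested on few sham mice. Without sham replicate 3 or without sham replicate 4, 1 assay passed, A03, because A08 and B08 then had 2 sham mice and could not go below p = 0.0556 and p = 0.0714 (exact permutation test). Without sham replicate 2 these were lost as well, and A06 came under 0.05. Their differences held, from -1.20 to -1.03 in A08 and from -1.91 to -1.65 in B08 when any 1 mouse was left out.

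A01 had the highest relative quantity of the panel in LAD mice. Relative expression was -5.31, -5.55 and -5.27 in the 3 sham mice, and -3.12, -2.62, -3.15 and -1.74 in the 4 LAD mice, with LAD replicate 4 above the other 3. Relative quantity was 1.00 ± 0.102 (SD, n = 3) in sham and 7.18 ± 3.66 (SD, n = 4) in LAD mice. The log2 difference of 2.72 ± 0.34 (SE) had an exact permutation p of 0.0571, the smallest that 3 mice against 4 allow, and an adjusted p of 0.00446 in limma. Target Ct was 31.9, 32.2 and 32.0 in sham mice against 24.5, 24.8, 27.4 and 26.6 in LAD mice. The reference Ct of this assay was lower by 3.46 cycles in LAD mice too, at 21.4, 22.2, 24.3 and 24.8 against 26.6, 26.6 and 26.7 in sham mice. On raw Ct the difference was therefore 6.19, and A01 was higher on both scales.

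A02, which held the lowest target Ct of the panel, was lower in LAD mice without overlap. Relative expression was 11.37, 11.25 and 11.64 in the 3 sham mice and 9.98, 10.12, 10.48 and 10.21 in the 4 LAD mice, close to each other in both groups. Relative quantity in LAD mice was 0.432 ± 0.0657 (SD, n = 4). The log2 difference was -1.22 ± 0.16 (SE; exact permutation test, p = 0.0571, the minimum for these group sizes), with a limma interval from -2.21 to -0.24 and an adjusted p of 0.0725 there. Limma over the 12 mice of this comparison alone gave A02 an adjusted p of 0.0037, and 0.0065 with the replicate block. The reference Ct of A02 differed by -0.27 cycles, and the raw difference was -0.95 (exact permutation test, p = 0.229), with overlap.

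B05 showed the same order of groups with more spread. The 3 sham mice lay at -2.46, -2.55 and -2.50, and the 4 LAD mice at -2.82, -4.22, -4.06 and -3.57, where LAD replicate 2 was close to the sham mice. Relative quantity in LAD mice was 0.480 ± 0.226 (SD, n = 4). The log2 difference was -1.17 ± 0.31 (SE; exact permutation test, p = 0.0571, the minimum for these group sizes), and the adjusted p in limma was 0.0214, or 0.0207 over the 12 mice alone and 0.25 with the replicate block. As in A03, the target Ct overlapped between the groups, with a raw difference of 0.40 (exact permutation test, p = 0.286), and the reference Ct was lower by 1.56 cycles in LAD mice.

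In 4 further assays the mean was higher in LAD mice, and none of them passed either test. B07 was the most different, with -6.48, -6.90, -6.45 and -6.19 in the 4 sham mice and a range from -7.08 through a median of -5.28 to -4.71 in the 6 LAD mice. Of these 6, 4 lay above all sham mice and 1 below. The log2 difference was 0.84 ± 0.44 (SE; exact permutation test, p = 0.143), its limma interval ran from -0.21 to 1.89, and relative quantity in LAD mice was 2.14 ± 1.19 (SD, n = 6). Here the target Ct was late in both groups, from 29.7 to 33.5 in sham mice and from 29.4 to 34.1 in LAD mice.

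B03 had sham values of -2.54, -2.57 and -2.08, and its 6 LAD mice were split, with -1.14, -1.23, -1.16 and -1.76 above the sham mice and -2.99 and -2.77 below them. Its log2 difference was 0.56 ± 0.38 (SE; exact permutation test, p = 0.31). B04 had sham values of -2.72, -2.67 and -2.001 and LAD values from -3.35 through a median of -2.17 to -1.53, with a log2 difference of 0.17 ± 0.36 (SE; exact permutation test, p = 0.714). LAD mice of B04 lay on both sides of the sham mice, as in B03. B03 and B04 shared 5 LAD reference readings and 1 sham reading, so their values are not independent. The same holds for the other pairs among the 12 that shared LAD and sham readings. B02 and B03 shared 3 LAD and 3 sham readings, and B08 and B09 shared 4 LAD and 2 sham readings. Without sham replicate 4, whose reference reading recurs at 96 h, the difference of B04 was 0.063 (exact permutation test, p = 0.929). B06 had sham values of -1.03, -1.49 and -1.26 and LAD values of -1.27, -0.12, -1.85 and -0.91, a log2 difference of 0.22 ± 0.38 (SE; exact permutation test, p = 0.743). Limma intervals reached 1.45 for B03, 1.08 for B04 and 1.02 for B06, so that a doubling could not be told from no difference in any of them.

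In the other 11 assays the mean was lower in LAD mice without passing the exact test. A09 was nearest to doing so in limma, with an unadjusted interval from -1.44 to -0.13 and an adjusted p of 0.0747. Its sham mice lay at -1.46, -0.54 and -0.52, the first apart from the others, and its LAD mice at -1.22, -2.03, -1.58, -1.42 and -1.88. LAD and sham means were apart by a log2 difference of -0.78 ± 0.34 (SE; exact permutation test, p = 0.107).

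A05 had all 5 sham mice, at -1.44, -1.44, -1.02, -1.62 and -1.54, and 5 LAD mice at -1.81, -1.22, -1.997, -1.87 and -2.03. Only LAD replicate 4 fell among the sham mice. The log2 difference was -0.37 ± 0.18 (SE; exact permutation test, p = 0.0714), and without LAD replicate 4 it was -0.52 (exact permutation test, p = 0.0159). That was the only 1 of 12 single removals to pass, and the difference ran from -0.52 to -0.28 over them. A05 is also the assay whose scale mattered most. Target Ct ran from 29.5 to 32.3 in sham mice and from 25.9 to 27.8 in LAD mice, a raw difference of 3.62 towards more transcript in LAD mice (exact permutation test, p = 0.00794, the minimum for these group sizes), beside the reference Ct that was lower by 3.99 cycles.

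A12 had sham values of 7.98, 7.72 and 7.35, and its 6 LAD mice ran from 6.39 through a median of 7.10 to 7.77, 4 of them below all sham mice. For A12 the log2 difference was -0.54 ± 0.26 (SE; exact permutation test, p = 0.119). B09 was alike in size, with sham values of 2.63, 2.48 and 2.56 and LAD values from 1.04 through a median of 2.08 to 2.81. Its log2 difference was -0.54 ± 0.24 (SE; exact permutation test, p = 0.119), with 5 of the 6 LAD mice below the sham mice and LAD replicate 3 above them. Without LAD replicate 3 it was -0.70 (exact permutation test, p = 0.0357), the only 1 of 12 single removals to pass. Over those removals the difference of B09 ran from -0.70 to -0.35. B02 had sham values of -4.62, -4.66 and -4.59 and LAD values of -5.64, -5.05, -5.07 and -4.57, with a log2 difference of -0.46 ± 0.22 (SE; exact permutation test, p = 0.229, where 0.0571 is the smallest possible). In B09 and B02 all LAD mice but 1 were below a narrow sham group, and in A12 all but 2.

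A06 and A07 had all 7 LAD mice. In A06 the 5 sham mice lay at -3.88, -5.28, -4.51, -4.72 and -4.46, a wide range, and LAD mice ran from -5.46 through a median of -4.93 to -4.48. For A06 the log2 difference was -0.32 ± 0.25 (SE; exact permutation test, p = 0.23), and without sham replicate 2, the lowest of its group, it was -0.50 (exact permutation test, p = 0.0485). No other single removal passed, and over the 12 removals the difference of A06 ran from -0.50 to -0.15. In A07 the 3 sham mice lay at -4.51, -3.81 and -4.16, LAD mice ran from -4.83 through a median of -4.41 to -4.00, and the log2 difference was -0.27 ± 0.23 (SE; exact permutation test, p = 0.233). In both assays LAD mice overlapped widely with sham mice, and the limma intervals ran from -0.89 to 0.26 in A06 and from -0.84 to 0.30 in A07.

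The remaining 4 assays had differences under 0.2 in size. A11, with 5 sham mice at 2.90, 3.00, 3.37, 2.66 and 2.74, had LAD values of 3.13, 2.12, 2.05, 3.53, 2.70 and 3.65, on both sides of the sham mice. Its log2 difference was -0.07 ± 0.31 (SE; exact permutation test, p = 0.844), with a limma interval from -0.74 to 0.61. A04 had sham values of -1.26, -1.06 and -0.52 and LAD values of -1.37, -1.17, -1.48, -0.45 and -0.91, a log2 difference of -0.13 ± 0.29 (SE; exact permutation test, p = 0.679). Neither assay placed its LAD mice to one side. A10 had sham values of -3.74, -3.73, -4.18 and -3.96, and its 6 LAD mice ran from -5.12 through a median of -3.96 to -3.06, with a log2 difference of -0.18 ± 0.32 (SE; exact permutation test, p = 0.676). In B01 the sham mice lay at -5.58, -5.69 and -7.84, the last with a target Ct of 34.2, and the 5 LAD mice, at -6.64, -5.94, -7.05, -6.74 and -6.38, all fell between them. The log2 difference of B01 was -0.18 ± 0.76 (SE; exact permutation test, p = 0.821), and without sham replicate 5 it was -0.92.

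The direction of most assays depended on the reference. Raw Ct compares mice evenly only if RNA input was equal, and it carries any difference in that input. The mean sham reference Ct was 29.0 with A05 and 23.4 with A08, so listings of the same group were not level across assays. On raw Ct the mean was higher in LAD mice in 17 assays and lower in 4, against 5 and 16 with the reference. The median log2 difference moved from -0.32 to 0.79. Of the 21 assays, 12 changed sides, all from lower to higher, while 4 were lower on both scales (A02, A08, B08 and B09) and 5 higher on both (A01, B03, B04, B06 and B07). On raw Ct 9 of the 21 assays (42.9%) had an exact permutation p under 0.05, 7 higher (33.3%) and 2 lower (9.52%), and in 9 (42.9%) the groups did not overlap. The 7 were A04, A05, A07, A11, A12, B03 and B04, and the 2 lower were A08 and B08, the only assays past the exact test on both scales. After Benjamini-Hochberg adjustment 0 of the 9 remained by the exact test, which at these group sizes no assay could pass by itself. Limma left 2 after adjustment, A01 and A05, both higher. Within an assay the move from one scale to the other equals the difference in its reference Ct, and what moved the reference was not tested.

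**Figure D3:**
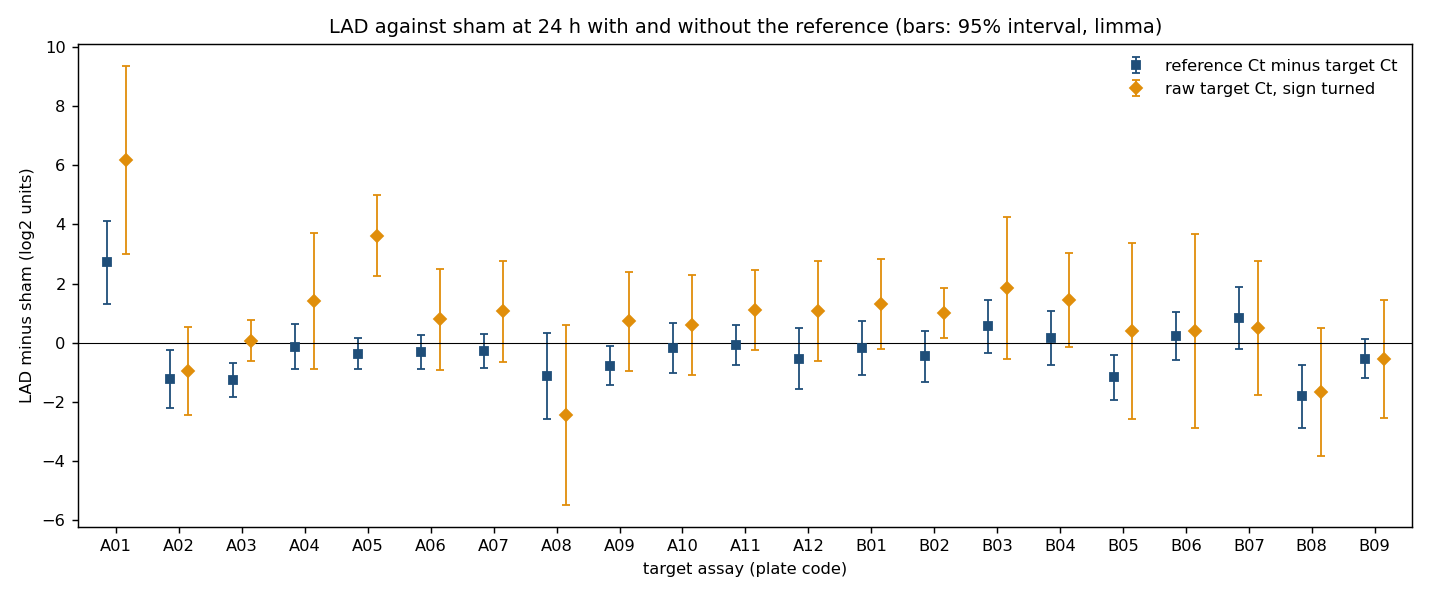
LAD minus sham at 24 h (y axis, log2 units) for each of the 21 target assays (x axis), with the reference assay (blue squares) and on raw Ct with the sign turned so that up is more transcript (orange diamonds). Bars are 95% intervals from limma over all mice, and 12 assays lie below 0 with the reference and above 0 on raw Ct.

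LAD and sham mice followed for 96 h, which are other animals, show where the early comparison differs from the late one. The median log2 difference was -0.32 at 24 h and -1.17 at 96 h. By the interaction of surgery and time in limma, adjusted by Benjamini-Hochberg, the LAD effect was not equal at 24 and 96 h in 12 assays (57.1%). Its signed value was higher at 24 h in 10 and lower in 2, which does not mean a larger effect in size. Of the 10, B06 and B07 were positive at 24 h and negative at 96 h. The rest of the 10 were negative at both times and further down at 96 h, as A12 at -0.54 and -4.10. B07 had the largest gap, at 0.84 at 24 h and -4.26 at 96 h (limma, adjusted p = 1.14e-05). A03 had the opposite one, at -1.27 and 0.66 (limma, adjusted p = 0.000105). A01 was higher in LAD mice at both times, at 2.72 and 3.50, and its interaction did not pass. The balance of 10 to 2 depended on the reference. On raw Ct 6 assays passed, all 6 higher at 24 h and 5 of them among the 12 with the same sign, and A03 was not one of these. Against the level of all target assays none was higher at 24 h, and A03 and B02, both lower, were the 2 that passed.

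**Figure D4:**
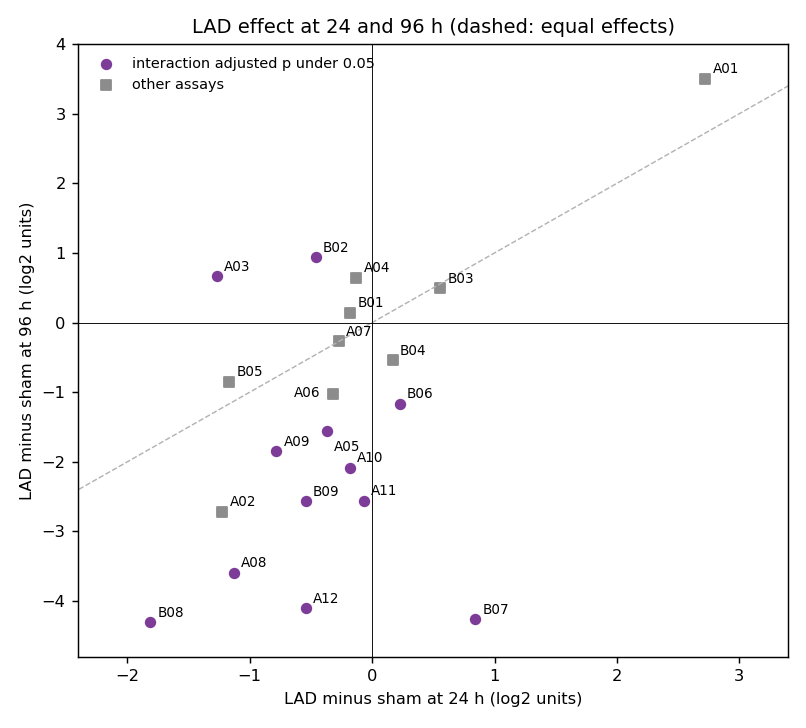
LAD minus sham at 24 h (x axis) against LAD minus sham at 96 h (y axis), both in log2 units with the reference assay, for the 21 target assays, with a dashed line of equal effects. Violet circles are the 12 assays with an adjusted interaction p under 0.05 in limma, 10 of them below the line and A03 and B02 above it.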

How the data were processed

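RNA was reverse transcribed with iScript and amplified with GoTaq qPCR Master Mix and SYBR green on a StepOnePlus for 40 cycles, and the authors deposited Ct values without normalization. How wells were combined and why combinations are empty is not given in the sources used here. A second deposited table holds the authors' fold changes against sham and was not used. All 21 assays were tested and are named. The members, tests and alternatives were chosen with earlier results of these data known. Relative expression was reference Ct minus target Ct. The main test was a two-sided exact permutation test of means, with p as 2 times the smaller tail, in place of the unpaired test of the methods, at an unadjusted threshold of 0.05. Benjamini-Hochberg adjustment was over the 21 assays. Intervals (95%) and interactions came from limma over all 38 mice. The test was checked on data made with known differences. These were independent draws with the same SD in both groups. They do not cover the larger SD in LAD mice or the recurring readings. Alternatives were limma, the linear scale, medians, raw Ct, other references, a Ct limit of 35, pooled sham mice, the replicate number as a block, and each mouse left out in turn. Since listings of a group may not come from separate mice, p-values measure only the spread between listings. Python 3.11.15, NumPy 2.4.6, SciPy 1.17.1, pandas 2.3.3, matplotlib 3.10.9, R 4.3.3 and limma 3.58.1 were used.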

Additional observations from a re-analysis of the deposited data

Results flagged for a closer look

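In A05, LAD replicate 4 stood apart from the other LAD mice, with a gap to the nearest of them of 0.731 of the range of the 5 mice. Its relative expression was -1.22. This was 1 of 27 groups of 4 to 7 mice examined, where chance flags about 1 in 20.

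The LAD effect at 24 h minus that at 96 h passed the limma interaction test with Benjamini-Hochberg adjustment in 12 assays. It was -1.93 in A03 (adjusted p = 0.000105) and -1.40 in B02 (adjusted p = 0.0307). The other 10 values were positive. B07 had 5.10 (adjusted p = 1.14e-05), A12 had 3.56 (adjusted p = 0.000138) and A11 had 2.49 (adjusted p = 0.000105). In A11 and A12 the difference at 24 h alone was small, at -0.07 and -0.54, beside -2.56 and -4.10 at 96 h. B09 had 2.03 (adjusted p = 0.000516), B08 had 2.49 (adjusted p = 0.00612), and A05 and A10 had 1.18 and 1.90 (adjusted p = 0.0133 in both). B06 had 1.39 (adjusted p = 0.0372), and A08 and A09 had 2.46 and 1.06 (adjusted p = 0.0471 in both). With any 1 mouse of these groups left out, A03, A05, A10, A11, A12, B07, B08 and B09 still passed, while A08, A09, B02 and B06 were each lost at least once.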

How the results depend on the processing

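The number of assays past 0.05, 3 with the exact test, was 3 on the linear scale and with Ct above 35 left out. It was 0 with Benjamini-Hochberg adjustment, 6 in limma over all mice unadjusted, 6 in limma over the 12 mice adjusted (A01, A02 and B05 beside the 3), 1 with medians, 9 on raw Ct, 5 with the mean reference Ct per sample number and 9 with pooled sham mice. It ran from 1 to 4 with a mouse left out. Limma with the replicate block gave 4, against 6 over the same 12 mice without it. Same-numbered deviations correlated from -0.52 to 0.16 over 5 pairs. This cannot settle whether mice are paired by number, since a number may not be the same mouse in every assay. The block moved the interaction count from 12 to 10. The number of assays with a higher mean in LAD mice, 5, was 17 on raw Ct, by either test, 9 with the level of all target assays as reference, 8 with pooled sham mice, and 5 to 7 with a mouse left out. The level of all target assays and the mean per sample number rest on each number being 1 mouse throughout. The counts over assays with a mouse left out do too, as 1 sample number was dropped from every assay. Recurring readings put this in doubt. The cause was not tested.

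The difference in reference Ct of -1.14 cycles (exact permutation test, p = 0.00253) was -1.20 over sign flips of same-numbered pairs (the replicate block), where 5 pairs cannot go below 0.0625. It ran from -1.25 to -1.07 with a mouse left out. The readings behind a sample number may come from several mice, so this p is not one of independent means. The interaction gave 6 assays on raw Ct, all higher at 24 h, 2 with the level of all target assays, both lower, and 9 to 13 with a mouse left out.

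Turned in sign, the log2 difference on raw Ct was 0.070 in A03, 1.42 in A04, 3.62 in A05, 0.79 in A06, 1.06 in A07, 0.72 in A09, 0.59 in A10, 1.11 in A11, 1.07 in A12, 1.31 in B01, 1.02 in B02 and 0.40 in B05, the same by either test. Against the level of all target assays it was 0.64 in A04, 2.81 in A05, 0.23 in A07, 0.19 in A11, 0.031 in A12, 0.57 in B01, -0.64 in B06 and -0.31 in B07. With the mean reference Ct per sample number it was 0.35 in A04, 2.57 in A05, 0.26 in B01, -0.93 in B06 and -0.52 in B07. With pooled sham mice it was 0.44 in A04, 0.27 in A11 and 0.055 in B01. A11 had 0.042 on the linear scale and 0.017 with medians, and with the replicate block A10 had 0.016 and B04 -0.10. With a mouse left out A04 ran from -0.29 to 0.086, A10 from -0.39 to 0.023, A11 from -0.23 to 0.094, B01 from -0.92 to 0.22 and B06 from -0.080 to 0.50. A03, A08 and B08 kept their direction under each alternative named here, except A03 on raw Ct, but not their size. With the mean reference Ct per sample number the log2 difference was -3.59 in A08, -2.84 in B08, -2.38 in A02 and 4.76 in A01, and B09 reached -1.47 and passed (exact permutation test, p = 0.0476). Against the level of all target assays it was -3.28 in A08, -2.13 in A02, 5.01 in A01, -1.16 in B09 and -0.64 in B05.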
